A study of Mus musculus with 9 samples.

Results

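The kinesins are motor proteins that walk along microtubules, and their messenger RNAs were followed across bone-marrow-derived macrophages that were untreated, given LPS, or given LPS with NCT503. Members were the protein-coding genes whose symbol is Kif followed by a digit. The rule found 36 of the 24187 gene identifiers in the deposited tables. They were grouped into 11 mitotic kinesins (Kif2c, Kif4, Kif11, Kif14, Kif15, Kif18a, Kif18b, Kif20a, Kif20b, Kif22 and Kif23), 13 transport kinesins (Kif1a, Kif1b, Kif1c, Kif3a, Kif3b, Kif3c, Kif5a, Kif5b, Kif5c, Kif13a, Kif13b, Kif16b and Kif17) and 12 others (Kif2a, Kif6, Kif7, Kif9, Kif19a, Kif21a, Kif21b, Kif24, Kif26a, Kif26b, Kif27 and Kif1bp). Kif1bp matched the name but encodes a protein that binds kinesins and is not itself a motor. The macrophages came from C57BL/6 mice of postnatal week 8, grown from marrow for 6 days with 10 ng/ml of macrophage colony-stimulating factor. Each of the 3 groups had 3 libraries and the same further 6 h in culture. The control cells had medium alone, the LPS cells 500 ng/ml of lipopolysaccharide, the bacterial ligand of Toll-like receptor 4, and the last group the same LPS with 50 µM NCT503, an inhibitor of the serine synthesis enzyme PHGDH. No group had NCT503 without LPS. The labels do not say whether the 3 libraries of a group came from separate mice or cultures, and the p-values therefore rest on a spread among libraries that may be only technical.

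A kinesin uses the energy of ATP to move along a microtubule or, in a few families, to take apart its end. Dividing cells make a set of mitotic kinesins that separate the spindle poles, move and align chromosomes and build the midzone where the daughter cells part; their genes are repressed in resting cells by the DREAM complex and switched on late in the cell cycle by its MuvB core with B-Myb and then Foxm1. Transport kinesins carry lysosomes, endosomes, mitochondria and vesicles toward the cell edge in dividing and resting cells alike. In macrophages, which depend on moving lysosomes, recycling vesicles and matrix-degrading podosomes, kinesin-1 works with the small GTPase Arl8b on lysosomes, and Kif1c and Kif9 have been tied to podosomes.

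Library totals over the 21434 genes in both tables were 20295862 to 23599685 reads. Levels below are reads divided by size factors computed over the 9 libraries, in the order of libraries 1, 2 and 3 of a group, and "normalized reads" always means this level. Fold changes are differences of log2(normalized reads + 1), given as the estimate ± SE from limma-trend, each comparison with 3 libraries against 3, and p-values are adjusted by Benjamini-Hochberg over all genes of the comparison. A gene was called at an adjusted p under 0.05. Libraries of a group differed in a trend with the GC content of the transcript. Over 10672 genes the deviations from the group mean rose most with GC content in control 3, LPS 2 and LPS with NCT503 2 (r = 0.364, 0.557 and 0.509), while LPS 1 and LPS with NCT503 1 and 3 went the other way (r = -0.593, -0.445 and -0.425). Kinesin calls that changed without the 3 libraries of highest r are given beside the results. Macrophage markers summed to between 218420 and 546040 normalized reads per library, and summed markers of T and NK cells, B cells, erythroid cells and dendritic cells reached at most 484, 129, 172 and 155. Stromal, neutrophil and myeloid progenitor markers reached higher sums, at most 49595, 19653 and 4900.5. Markers at 0 in every library of a group were Pax5 in the controls, Vpreb1 with LPS, and Siglech, Hbb-bs, Cxcr2 and Retnlg with NCT503. Other members of their lists had reads in those groups.

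Per kilobase of gene length, transport kinesins made up most of the family's messages in every library. Kif1c alone accounted for 36.1 ± 5.31% (SD, n = 3) of the summed motor reads per kilobase in the controls, 51.2 ± 6.02% with LPS and 37.0 ± 8.75% with LPS and NCT503, and ranked first of the 34 kinesins in all 3 groups. After it came Kif13b (191 normalized reads per kilobase), Kif3b (188) and Kif3a (142) in the controls, Kif3c (316), Kif3b (228) and Kif5b (153) with LPS, and Kif5b (268), Kif3c (228) and Kif2a (159) with LPS and NCT503. Among neighbours in these orders, Kif13b and Kif3b in the controls (SD 13.3 and 12.8), Kif3b and Kif5b with LPS (SD 29.9 and 59.5) and Kif5b and Kif3c with both agents (SD 95.8 and 16.5) lay within their spread. The mitotic kinesins together held 9.46%, 9.75% and 8.00% of the family's reads per kilobase in the controls, 2.68%, 2.11% and 3.60% with LPS and 2.44%, 1.79% and 2.60% with LPS and NCT503, so the control libraries stood above all 6 treated ones. The transport kinesins' share was 80.8 ± 0.930% in the controls, 92.0 ± 0.888% with LPS and 87.6 ± 1.46% with LPS and NCT503. The sum over the motors was 2075 ± 32.6, 2272 ± 98.6 and 2257 ± 79.1 normalized reads per kilobase.

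LPS against control asked what the bacterial ligand does to the motors. All 11 mitotic kinesins fell with LPS, 11 of 11 called lower where 21.4% of the 19975 genes tested were called lower and 20.5% higher. In each of the 11 the LPS libraries lay below the control libraries without overlap. The share of all genes without overlap was not counted. The log2 fold changes of the 11 ran from -1.10 (Kif22) to -2.79 (Kif23), with a median of -1.72 beside -0.05 over all genes tested. With libraries scaled by their totals alone the class median was -2.33, beside -0.69 over all genes, of which 2092 were then called higher and 8536 lower in place of 4089 and 4266; all 11 were still called. In bulk RNA, fewer dividing cells and less message per cell cannot be told apart.

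**Figure D1:**
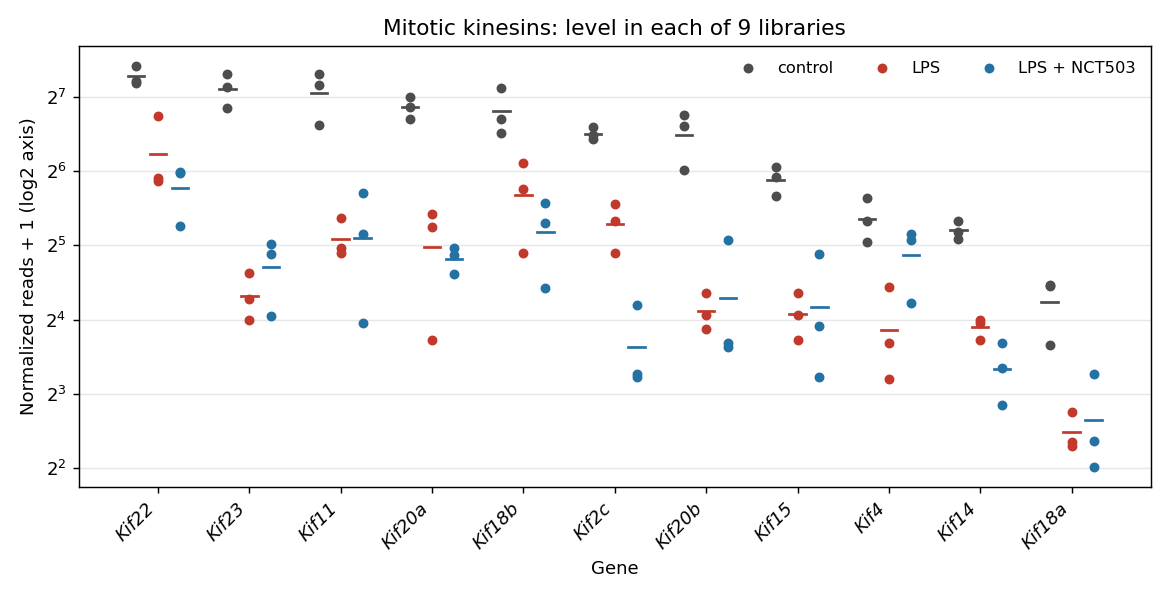
Levels of the 11 mitotic kinesins in each of the 9 libraries (points) with the group mean (short line), in normalized reads + 1 on a log2 axis, genes ordered by control mean. For every gene the 3 control points lie above the 3 LPS points; the points with LPS and NCT503 overlap the LPS points except for Kif2c and Kif14, which lie below them, and those of Kif4 reach the control range.

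The spindle-pole motors came first by role. Kif11, the tetrameric motor that slides antiparallel microtubules to push the poles apart, was at 157, 141 and 97.0 normalized reads in the controls, 40.3, 28.6 and 30.2 with LPS and 51.0, 14.6 and 34.6 with LPS and NCT503 (log2 fold change with LPS -1.95 ± 0.27, adjusted p = 0.000129). Kif15, which can take over from Kif11 in holding the spindle bipolar, was at 59.4, 65.1 and 49.7 in the controls, 19.6, 12.3 and 15.7 with LPS and 28.5, 8.32 and 14.1 with LPS and NCT503 (-1.82 ± 0.30, adjusted p = 0.000536). Both were lower in every LPS library than in every control, by 3.86-fold and 3.53-fold. NCT503 left no called change in either, and library 2 of that group, 14.6 for Kif11 and 8.32 for Kif15, was the lowest of the 9 for both.

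Among kinesins of the midzone and cytokinesis, Kif23, Kif20b and Kif20a had the largest falls of the mitotic class with LPS. Kif14 and Kif4 fell by less than the class median. Kif23, which with Racgap1 forms the centralspindlin complex that organises the midzone, was at 139, 157 and 114 normalized reads in the controls, 18.4, 15.0 and 23.6 with LPS and 28.5, 15.6 and 31.4 with LPS and NCT503, a 6.9-fold fall with LPS (-2.79 ± 0.27, adjusted p = 8.84e-06). Kif20b, needed for the last steps of cytokinesis, was at 107, 95.9 and 63.3 in the controls, 19.6, 13.6 and 15.7 with LPS and 32.6, 11.4 and 11.9 with LPS and NCT503 (-2.35 ± 0.30, adjusted p = 7.95e-05). Kif20a, which brings the Aurora B complex to the midzone, was at 126, 115 and 103 in the controls, 36.9, 12.3 and 42.0 with LPS and 23.4, 28.1 and 30.3 with LPS and NCT503 (-2.05 ± 0.40, adjusted p = 0.00156), with LPS 2 the lowest. None of the 3 overlapped between control and either treated group. Kif14, which recruits citron kinase to the midbody, was at 32.8, 39.2 and 35.3 in the controls, 15.0, 12.3 and 14.4 with LPS and 9.17, 6.24 and 11.9 with LPS and NCT503 (-1.30 ± 0.31, adjusted p = 0.00524). Kif4, the chromokinesin that works with Prc1 to limit midzone microtubule length, was at 48.5, 39.2 and 32.0 in the controls, 20.7, 8.18 and 11.8 with LPS and 32.6, 17.7 and 34.6 with LPS and NCT503 (-1.56 ± 0.38, adjusted p = 0.00657).

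Among motors that act on chromosomes and microtubule ends, Kif22, a chromokinesin that pushes chromosome arms toward the spindle equator, was at 148, 169 and 144 normalized reads in the controls, 58.8, 57.3 and 106 with LPS and 62.2, 37.5 and 61.7 with LPS and NCT503 (-1.10 ± 0.26, adjusted p = 0.00575). Kif18b, which shortens astral microtubules together with Kif2c, was at 90.2, 138 and 103 in the controls, 28.8, 53.2 and 68.2 with LPS and 20.4, 38.5 and 46.5 with LPS and NCT503 (-1.18 ± 0.32, adjusted p = 0.0118). This call was lost without control 2 (-1.01, adjusted p = 0.0664) and after quantile normalization (-0.87, adjusted p = 0.0573). Kif2c, a depolymerase at centromeres that corrects wrong attachments, was at 88.1, 85.4 and 95.3 in the controls, 39.2, 28.6 and 45.9 with LPS and 17.3, 8.32 and 8.66 with LPS and NCT503 (-1.24 ± 0.26, adjusted p = 0.00242). These 3 had the smallest falls of the class, and their groups still did not overlap. Kif18a, which damps chromosome movements at microtubule plus ends, was the scarcest at 11.6, 21.0 and 20.8 in the controls, 5.76, 4.09 and 3.93 with LPS and 3.06, 4.16 and 8.66 with LPS and NCT503 (-1.72 ± 0.42, adjusted p = 0.00665). The LPS libraries held 3 to 5 reads of it each, and the call was lost when control 3 and LPS 2 were both left out (-1.52, adjusted p = 0.0678), which leaves 10 of the 11 called.

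NCT503 on top of LPS asked what the PHGDH inhibitor changes in LPS-treated cells. Of the 11 mitotic kinesins, 10 passed the test in neither direction and 1, Kif2c, fell further, against 16.9% of 19795 genes called higher and 15.7% called lower. The median of the class was -0.04, or 0.18 with library totals, beside 0.08 and 0.31 over all genes, of which totals called 4405 higher and 2137 lower in place of 3351 and 3098. Kif2c in the NCT503 libraries, 17.3, 8.32 and 8.66 normalized reads, lay below the LPS libraries, 39.2, 28.6 and 45.9, without overlap, a 3.2-fold fall (-1.68 ± 0.39, adjusted p = 0.00639). The estimate for Kif4 was higher (1.04 ± 0.43, adjusted p = 0.0859) and not called, and its groups overlapped. It passed without LPS 1 (1.36, adjusted p = 0.041) and without LPS with NCT503 2 (1.33, adjusted p = 0.0309). The other 9 estimates lay between -0.58 (Kif14) and 0.35 (Kif23), with standard errors of 0.33 to 0.51, so differences of that size could not be told from 0 with 3 libraries a group.

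Against the untreated control, cells with LPS and NCT503 had 10 of 11 mitotic kinesins lower, where 19.7% of 19930 genes were lower and 20.7% higher. This comparison shares its control libraries with the LPS comparison, and the median was -1.90 beside 0.05 over all genes. Library totals gave -2.34 beside -0.37, with 2452 genes higher and 6568 lower in place of 4134 and 3927, and the same count of 10. Kif2c gave the largest fall (-2.94 ± 0.33, adjusted p = 6.13e-05), then Kif23 (-2.44), Kif20b (-2.32) and Kif11 (-2.09). Kif4 was the exception at -0.52 ± 0.34, adjusted p = 0.255. The call of Kif18a (-1.63 ± 0.47, adjusted p = 0.0174) was lost without control 2, control 3 or LPS with NCT503 1 (adjusted p = 0.0588 to 0.0779) and without all of control 3 and library 2 of the NCT503 group (-1.41, adjusted p = 0.0539).

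The other genes of the mitotic programme were counted from a list of 30 spindle, kinetochore and cytokinesis partners of these motors. With LPS 24 of 30 were lower and the other 6 were not called, with a median of -1.38, where 21.4% of all genes were lower. The checkpoint kinase Bub1b (-2.40), the kinetochore proteins Ndc80 (-2.36) and Nuf2 (-2.15), and the spindle protein Ckap2 (-2.82) were among those that fell. Racgap1, the centralspindlin partner of Kif23, fell by 1.58 on the log2 scale, and Prc1, the midzone partner of Kif4, fell by 1.37. With NCT503 against LPS 7 of 30 were lower and 5 higher, not far from the 15.7% and 16.9% of all genes. Plk1, a kinase that drives mitotic entry, fell (-1.56 ± 0.25, adjusted p = 0.000593), as did Cdk1 (-1.36), while Mki67, the proliferation antigen that coats mitotic chromosomes, rose (2.14 ± 0.39, adjusted p = 0.00165). Mki67 stood at 395, 329 and 270.0 normalized reads in the controls, 387, 235 and 219 with LPS and 1673, 565 and 1813 with LPS and NCT503. Library 2 was the lowest of the NCT503 group and still above every LPS library. Against control 24 of 30 were lower and 1, Mki67, was higher (1.87), where 19.7% of all genes were lower and 20.7% higher.

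Of 16 regulators of mitotic genes 4 were higher and 6 lower with LPS, where 20.5% and 21.4% of all genes were. Cdkn1a, the p21 inhibitor of cyclin-dependent kinases, was at 2716, 3768 and 3992 normalized reads in the controls, 28654, 41281 and 36493 with LPS and 23219, 20815 and 19629 with LPS and NCT503, up by 3.35 ± 0.19 with LPS (adjusted p = 1.22e-07). Rbl1, a pocket protein of DREAM, rose by 1.49, whereas its relative Rbl2 fell by 1.69 and Tfdp2, a partner of E2F factors, fell by 2.73. Foxm1, the activator of late cell cycle genes, fell by 1.12 with LPS (adjusted p = 0.00952). With NCT503 against LPS the counts of regulators, 4 higher and 2 lower, were near the 16.9% and 15.7% of all genes. The MuvB subunits Lin54 (1.88) and Lin9 (1.46) were among those that rose, and E2f4 (-0.93) and Cdkn1a (-0.73) fell. Against control 4 were higher and 6 lower, where 20.7% of all genes were higher and 19.7% lower.

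Kinesins that the name rule leaves out fell with LPS in 6 of 6 cases, where 21.4% of all genes were lower. Kifc1, a minus-end motor of the spindle, was at 208, 253 and 284 normalized reads in the controls, 109, 125 and 127 with LPS and 40.8, 58.3 and 39.0 with LPS and NCT503 (-1.02 ± 0.19, adjusted p = 0.00123 with LPS and -1.39 ± 0.26, adjusted p = 0.00167 for NCT503 against LPS). Of these 6, Kifc1 alone was called lower with NCT503, as Kif2c was of the 11, where 15.7% of all genes were lower. Cenpe, the kinetochore motor, was at 86.1, 77.0 and 42.5 in the controls, 38.0, 13.6 and 14.4 with LPS and 44.9, 5.20 and 34.6 with LPS and NCT503 (-1.69 ± 0.42, adjusted p = 0.00737 with LPS). Stard9, a spindle motor that also works on lysosomes, was at 1763, 1474 and 1094 in the controls, 157, 73.6 and 87.9 with LPS and 449.5, 343 and 478 with LPS and NCT503. It fell with LPS (-3.80 ± 0.27, adjusted p = 6.69e-07) and rose with NCT503 (2.05 ± 0.28, adjusted p = 0.000228). Kifc3, a minus-end motor of epithelial junctions and endosomes, also rose with NCT503 (1.38 ± 0.32, adjusted p = 0.00661). Against control 5 of the 6 were lower, where 19.7% of all genes were. Kifc5b is a near-copy of Kifc1, and counting may have split reads between them, so the 6 may not be separate cases.

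Markers of immature marrow cells also differed between the groups. The summed level of the 10 myeloid progenitor markers was 2844 to 4901 normalized reads in the controls, 1301 to 2422 with LPS and 374 to 528 with LPS and NCT503. Of these markers 4 of 10 fell and 2 rose with LPS, where 21.4% of all genes were lower and 20.5% higher. With NCT503 against LPS 8 fell, where 15.7% of all genes were lower and 16.9% higher. Against control 7 fell, where 19.7% of all genes were lower. Neutrophil markers summed to 5876 to 7521, 14541 to 19653 and 4196 to 4889; with LPS 2 of 9 rose and 1 fell, and with NCT503 against LPS 7 of 9 fell. Their part in the fall of the mitotic kinesins was not tested. Macrophage markers changed too, with 5 of 10 higher and 1 lower with LPS, and 6 lower with NCT503 against LPS.

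Promoters are shown for mitotic kinesins because several of their genes moved together with LPS. The 250 bases before the RefSeq start (GRCm38.p6) were searched on both strands for TTTGAA and TTTAAA, forms of the element that DREAM and MuvB read near the start of late cell cycle genes, and for CCAAT, the site of the NF-Y factor. RefSeq entries matched 29 of the 36 kinesins and 10 of the 11 mitotic ones. Kif11, Kif15 and Kif22 held TTTGAA (read as TTCAAA on the gene's strand) next to the start, beginning 19, 19 and 17 bases before it. The last 30 bases before the start, with the match in capitals, are as follows; Kif11 (chr19:37376352-37376381) and Kif15 (chr9:122951051-122951080) lie on the plus strand and Kif22 (chr7:127042421-127042450) on the minus strand. For Kif15 and Kif22 the RefSeq start lies inside the span of the gene in the deposited table, so these 30 bases and their matches fall within that span and not before it.
Kif11: cgtctccatttTTCAAAattgaggcgcgga
Kif15: ggggcgccaaaTTCAAAtctgcggccatct
Kif22: ggggccccggtaaTTCAAAagagagaagcg

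In the whole window of Kif11 (chr19:37376132-37376381, plus strand) a CCAAT, read as ATTGG, begins at position -45, upstream of the TTTGAA match. Kif18b (chr11:102925125-102925374, minus strand) holds a pair of CCAAT matches and neither hexamer. Kif3c (chr12:3364882-3365131, plus strand), among the 3 transport kinesins called higher with LPS, is shown for contrast and holds none of the 3 motifs. Kif1c, also called higher, holds none of them in its window. Kif1a, called higher too, holds TTTGAA at position -44 in a window. Capitals mark the matches.
Kif11: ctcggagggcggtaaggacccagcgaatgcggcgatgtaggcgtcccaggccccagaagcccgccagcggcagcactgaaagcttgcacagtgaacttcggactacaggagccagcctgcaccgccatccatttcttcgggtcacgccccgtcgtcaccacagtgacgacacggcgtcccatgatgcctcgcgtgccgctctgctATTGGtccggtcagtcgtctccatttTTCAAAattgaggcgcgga
Kif18b: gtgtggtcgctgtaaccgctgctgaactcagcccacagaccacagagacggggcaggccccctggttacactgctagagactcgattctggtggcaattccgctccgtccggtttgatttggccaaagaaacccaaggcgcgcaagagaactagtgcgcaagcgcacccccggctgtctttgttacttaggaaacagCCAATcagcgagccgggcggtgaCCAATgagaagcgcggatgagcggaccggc
Kif3c: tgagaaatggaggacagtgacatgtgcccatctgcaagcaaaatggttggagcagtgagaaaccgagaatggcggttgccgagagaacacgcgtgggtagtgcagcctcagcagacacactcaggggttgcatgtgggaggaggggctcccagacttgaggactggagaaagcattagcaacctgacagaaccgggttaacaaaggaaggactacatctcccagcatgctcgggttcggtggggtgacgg

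Counted over genes, 5 of 10 mitotic kinesins held TTTGAA or TTTAAA in the 250 bases (Kif2c, Kif11, Kif14, Kif15 and Kif22), against 25.2% of the 32851 promoters in the table. Transport kinesins held it in 1 of 10 and the other kinesins in 2 of 9. CCAAT was found in 6 of 10 mitotic promoters, 3 of 10 transport and 4 of 9 other ones, against 33.9% of all, and 2 or more CCAAT in 3 of 10, 1 of 10 and 1 of 9, against 10.1%. TTTGAA beginning 30 to 10 bases before the start, a window chosen after the matches were seen, was in 3 of 10 mitotic promoters and 1.21% of all. For Kif2c, Kif4 and Kif14, as for Kif15 and Kif22, the window is not that of the outermost start. The windows of Kif2c (chr4:117178773-117179022), Kif14 (chr1:136467598-136467847) and Kif4 (chrX:100625815-100626064) lie wholly inside the deposited gene spans (chr4:117159639-117182639, chr1:136466343-136531511 and chrX:100625737-100727214). The hexamers of Kif2c and Kif14 are counted among the 5, and the CCAAT of Kif14 and Kif4 among the 6. Kif4 is also among the 3 with 2 or more CCAAT. These matches may therefore not lie in a promoter. A match is a description of letters. Kif11, with TTTGAA and CCAAT, had a log2 fold change with LPS of -1.95. Kif20b and Kif18a, with none of the 3 motifs in their windows, had -2.35 and -1.72. The part of the motifs in these changes was not tested.

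The transport kinesins moved in both directions. With LPS 7 of 13 fell, 3 rose and 3 were not called, with a median of -0.89, where 21.4% of all genes were lower and 20.5% higher, so the count of those that rose is near the background. Library totals gave 8 lower and 1 higher. With NCT503 against LPS 4 of the 12 tested rose, 1 fell and 7 were not called, with a median of 0.64, where 16.9% of all genes were higher and 15.7% lower. With library totals 6 were higher and the other 6 not called. Against control 5 of 13 were lower, 4 higher and 4 not called, with a median of 0.07 that turned to -0.39 with library totals (6 lower and 1 higher) and to -0.43 after quantile normalization. Over all genes 19.7% were lower and 20.7% higher there. Single libraries moved these counts: 1 was higher with LPS without LPS 3, and with NCT503 against LPS the lower call of Kif3b was lost without LPS 1, LPS 3 or LPS with NCT503 3, while 2 were lower without LPS with NCT503 2. Against control 2 were lower without control 1 or 2 and 3 without control 3 or LPS with NCT503 3, and 2 were higher without control 2, or LPS with NCT503 1 or 3.

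**Figure D2:**
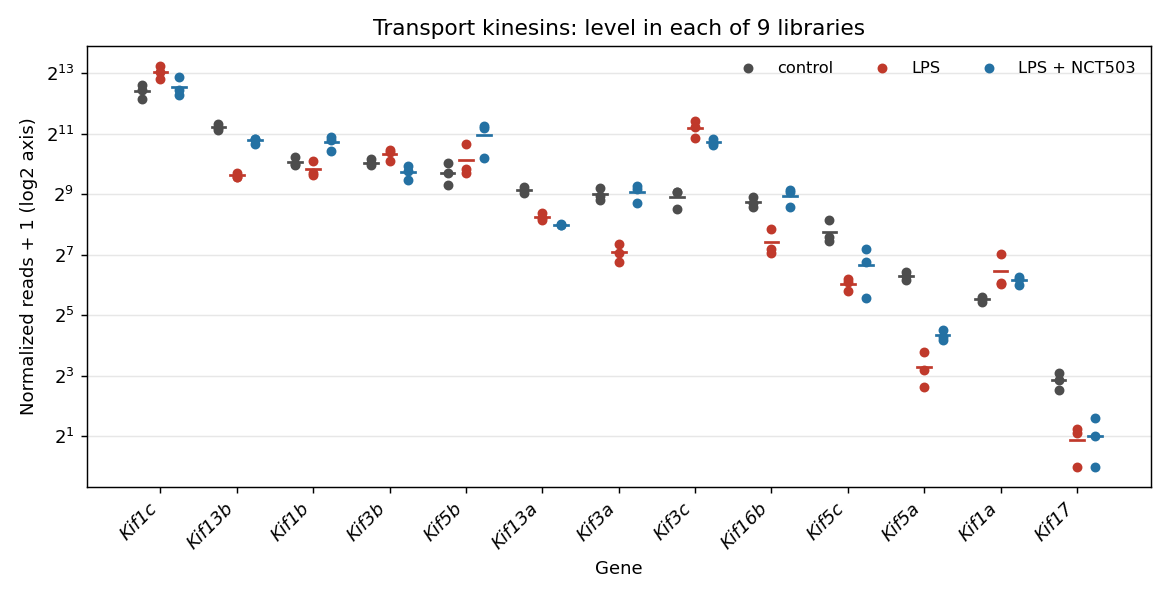
Levels of the 13 transport kinesins in each of the 9 libraries (points) with the group mean (short line), in normalized reads + 1 on a log2 axis, genes ordered by control mean. Kif3c stands above the controls in all 6 treated libraries, while the LPS points of Kif13b, Kif3a and Kif16b lie below both other groups.

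Subunits of kinesin-2 changed in opposite directions. The motor is a pair of Kif3a with either Kif3b or Kif3c, held by the accessory subunit Kifap3. Kif3c was at 366, 539.8 and 542 normalized reads in the controls, 2422, 2748 and 1853 with LPS and 1825, 1662 and 1586 with LPS and NCT503, a 4.87-fold rise with LPS (2.29 ± 0.20, adjusted p = 3.63e-06) that was the largest rise among the 34 kinesins tested. Kif3a was at 591, 489 and 452 in the controls, 165, 108 and 132 with LPS and 580.0, 416 and 620.2 with LPS and NCT503. It fell 3.78-fold with LPS (-1.92 ± 0.20, adjusted p = 1.43e-05) and rose 3.97-fold with NCT503 (1.99 ± 0.23, adjusted p = 7.25e-05). The LPS libraries of Kif3a lay below the other 6, and the NCT503 libraries overlapped the controls (0.07 ± 0.19, adjusted p = 0.816). Kif3c in the NCT503 libraries lay below the LPS and above the control libraries; against control it was higher (1.83 ± 0.18, adjusted p = 2.6e-05), and against LPS the difference was not called (-0.45 ± 0.19, adjusted p = 0.0861).

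Kif3b was at 1140.2, 1039 and 1001 normalized reads in the controls, 1420.4, 1098 and 1343 with LPS and 968, 715 and 868 with LPS and NCT503. It was not called with LPS (0.28 ± 0.15, adjusted p = 0.167) and fell with NCT503 against LPS (-0.60 ± 0.19, adjusted p = 0.0284). That call was lost without LPS 1, LPS 3 or LPS with NCT503 3 (adjusted p = 0.0723 to 0.110) and when libraries were scaled by their totals (-0.35, adjusted p = 0.206), with which Kif3b was instead called lower against control (-0.78, adjusted p = 0.00454). Kifap3 was at 251, 224 and 216 in the controls, 88.7, 60.0 and 69.5 with LPS and 126, 95.7 and 154 with LPS and NCT503, lower with LPS (-1.66 ± 0.21, adjusted p = 6.82e-05) and higher with NCT503 (0.77 ± 0.26, adjusted p = 0.045). The ratio of Kif3c to Kif3a per kilobase was 0.300, 0.534 and 0.580 in the controls, 7.12, 12.3 and 6.77 with LPS and 1.52, 1.93 and 1.24 with LPS and NCT503. The ratio in the LPS libraries was above that in every other library.

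**Figure D3:**
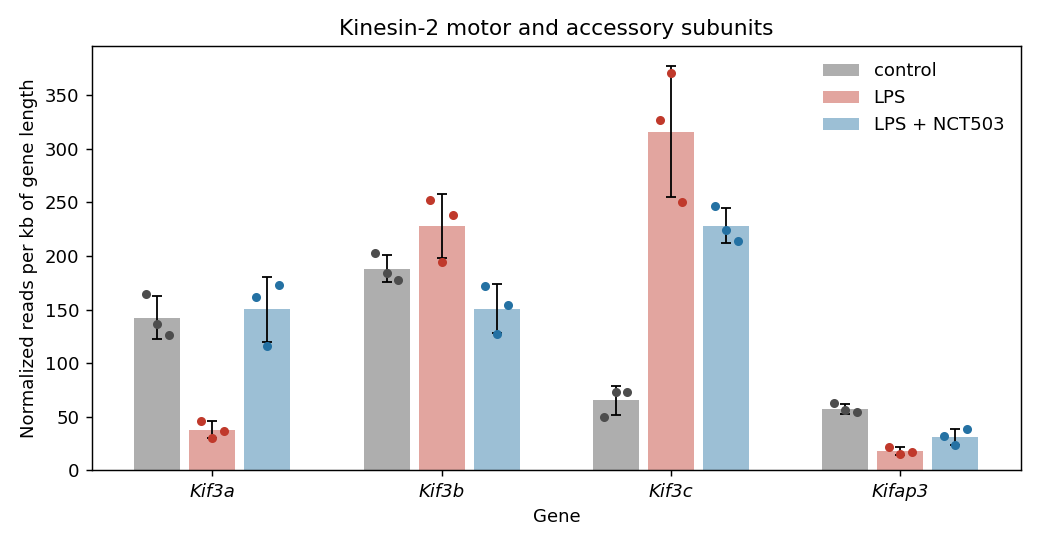
Normalized reads per kilobase of gene length for the kinesin-2 subunits Kif3a, Kif3b, Kif3c and Kifap3 in the 3 groups; bars are means, error bars SD (n = 3) and points libraries. With LPS Kif3a falls to 37.6 from 142 and Kif3c reaches 316 from 65.2; with NCT503 Kif3a is back at 150.2 while Kif3c stays at 228.

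Exons of Kif3c share 35.3% of their bases with 1110002L01Rik on the other strand, and the strand setting of the counting is not given in the sources used here. Reads of that gene were few and fell with LPS, from 46.3 ± 5.71 to 23.3 ± 4.65 (SD, n = 3, on the scale of that comparison), against a rise of Kif3c from 495 ± 105 to 2408 ± 459. The part of shared exons in the rise of Kif3c was not tested. Kif17, a kinesin-2 that works alone in cilia and dendrites, had 6 to 11 reads in each control library, 0 to 1 in each LPS library and 0 to 2 with NCT503. It was called lower with LPS (-2.07 ± 0.54, adjusted p = 0.00973) and with both agents against control (-1.95 ± 0.55, adjusted p = 0.0166). In the authors' deposited table the LPS difference of Kif17 had an adjusted p of 0.0915, and DESeq2 on the recovered reads gave 0.089, so its call rests on the test used. With NCT503 the control comparison lost the call of Kif17 without control 1, control 2 or LPS with NCT503 3 (adjusted p = 0.0539 to 0.0628).

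Kinesin-1 heavy chains, which carry lysosomes, mitochondria and vesicles with the light chains, went different ways. Kif5b, the form made in most tissues, was at 1045, 828 and 636 normalized reads in the controls, 1637, 839 and 917 with LPS and 2333, 1169.5 and 2451 with LPS and NCT503 and was not called with LPS (0.40 ± 0.26, adjusted p = 0.234). Kif5a and Kif5c, forms best known from neurons, fell with LPS. Kif5a was at 84.7, 70.7 and 77.7 in the controls, 12.7, 8.18 and 5.25 with LPS and 17.3, 21.9 and 18.4 with LPS and NCT503 (-3.09 ± 0.35, adjusted p = 2.92e-05), an 8.51-fold fall that was the largest of the 34 kinesins tested. Kif5c was at 284, 192 and 176 in the controls, 68.0, 54.5 and 72.1 with LPS and 146, 46.8 and 107 with LPS and NCT503 (-1.70 ± 0.24, adjusted p = 0.000137). Kif5b made up 73.0 ± 2.29% of the 3 heavy chains per kilobase in the controls, 93.3 ± 1.65% with LPS and 94.1 ± 0.860% with LPS and NCT503, without overlap between the controls and the treated libraries.

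With both agents against control Kif5b was higher (1.2 ± 0.29, adjusted p = 0.00853), and Kif5a (-1.97 ± 0.26, adjusted p = 0.000193) and Kif5c (-1.23 ± 0.38, adjusted p = 0.0274) were lower. Kif5c lost its call without any 1 of the 3 controls (adjusted p = 0.0503 to 0.0845). For NCT503 against LPS none of the 3 passed: Kif5b gave 0.80 ± 0.31, adjusted p = 0.071, Kif5a 1.11 ± 0.41, adjusted p = 0.0593 and Kif5c 0.48 ± 0.37, adjusted p = 0.356. Leaving out LPS 1 or LPS with NCT503 2 changed these outcomes. Kif5b passed without LPS 1 (1.10, adjusted p = 0.0243) and without LPS with NCT503 2 (1.15, adjusted p = 0.00461), Kif5a without LPS 1 (1.39, adjusted p = 0.0335) and Kif5c without LPS with NCT503 2 (0.95, adjusted p = 0.0149). Kif5b also passed with library totals (1.05, adjusted p = 0.0355), after quantile normalization (0.91, adjusted p = 0.0461) and in DESeq2 on the recovered reads (0.82, adjusted p = 0.0309), and Kif5a with library totals (1.33, adjusted p = 0.0352) and in edgeR (1.15, adjusted p = 0.0483). The rise of Kif5b against control was lost with library totals (0.75, adjusted p = 0.0912). In the authors' deposited table Kif5b had an adjusted p of 0.0312 against LPS.

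Kinesin-3 motors of the Kif1 group held the family's most abundant message. Kif1c, which carries integrin vesicles and reaches podosomes in macrophages, was at 4519, 5624 and 6226 normalized reads in the controls, 7211, 9697 and 8501 with LPS and 5616, 7506 and 5039 with LPS and NCT503. It rose with LPS (0.64 ± 0.17, adjusted p = 0.0111), and the LPS libraries lay above the controls without overlap. The NCT503 libraries overlapped both groups (-0.49 ± 0.20, adjusted p = 0.0764 against LPS, 0.14 ± 0.19, adjusted p = 0.586 against control). The direction of the LPS change depended on the scaling: it was -0.06 (adjusted p = 0.644) with library totals and -0.28 (adjusted p = 0.0642) after quantile normalization, and the call was lost without LPS 3 (0.63, adjusted p = 0.0517). Library totals alone moved the median of all genes with LPS from -0.05 to -0.69, and Kif1c lay above the median of all genes under both scalings. After quantile normalization that median was -0.10 and Kif1c lay below it. The difference between NCT503 and LPS passed without LPS 1 (-0.61, adjusted p = 0.0446) and without LPS with NCT503 2 (-0.66, adjusted p = 0.0138).

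**Figure D4:**
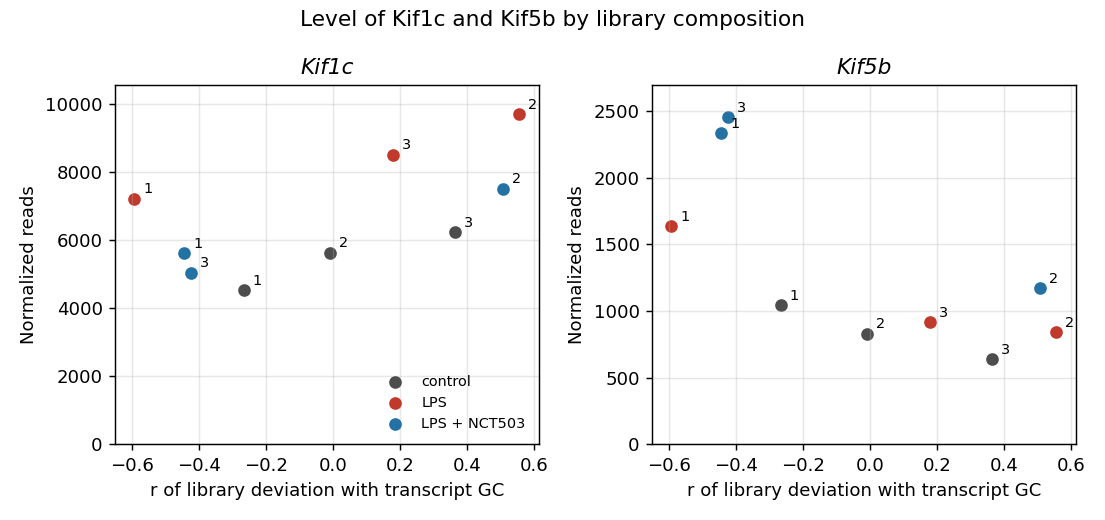
Normalized reads of Kif1c (left) and Kif5b (right) in each of the 9 libraries, numbered within their group, against the correlation r, over 10672 genes, of that library's deviation from its group with transcript GC content. Within each group Kif1c is highest in the library with the highest r (control 3, LPS 2 and LPS with NCT503 2) and Kif5b is lowest in that library.

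Kif1c has a transcript GC content of 54.5% and Kif5b one of 41.1%, and their ratio within a library followed the library's GC trend. Per kilobase the ratio of Kif1c to Kif5b was 4.40, 6.90 and 9.95 in the controls, 4.48, 11.8 and 9.43 with LPS and 2.45, 6.52 and 2.09 with LPS and NCT503. The groups overlapped in this ratio. Without control 3, LPS 2 and LPS with NCT503 2, NCT503 against LPS gave -0.55, adjusted p = 0.0263 for Kif1c, 0.98, adjusted p = 0.0193 for Kif5b and 0.84, adjusted p = 0.0389 for Kif5c, so that 6 transport kinesins were called higher in place of 4 and 2 lower in place of 1. The LPS comparison then had 7 transport kinesins lower and 2 higher, Kif1a no longer called (0.98, adjusted p = 0.0798), and against control Kif1a was also lost (0.67, adjusted p = 0.0536). With the deviations corrected for GC content, Kif5b passed with LPS (0.53, adjusted p = 0.0218), and the counts were 7 lower and 3 higher with LPS and 5 higher and 1 lower for NCT503 against LPS.

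Kif1b, which carries mitochondria and vesicle precursors, was at 1200.4, 998 and 1034 normalized reads in the controls, 1106, 792 and 825 with LPS and 1903, 1382 and 1780.4 with LPS and NCT503. It was not called with LPS (-0.25 ± 0.17, adjusted p = 0.253) but was lower without LPS 1 (-0.40, adjusted p = 0.0449) and with library totals (-0.96, adjusted p = 0.005), and it rose with NCT503 against LPS (0.90 ± 0.20, adjusted p = 0.00474). Against control it was higher (0.64 ± 0.17, adjusted p = 0.0116), a call lost without control 2, LPS with NCT503 1 or LPS with NCT503 3 (adjusted p = 0.0535 to 0.0669) and with library totals (0.19, adjusted p = 0.423). Kif1a, the carrier of synaptic vesicle precursors in neurons, was at 45.8, 47.6 and 42.5 in the controls, 65.7, 64.1 and 129.8 with LPS and 73.4, 63.5 and 76.8 with LPS and NCT503. LPS 3 stood apart from the other LPS libraries, and the rise with LPS (0.85 ± 0.30, adjusted p = 0.0419) was lost without it (0.51, adjusted p = 0.169) and without any 1 control (adjusted p = 0.0778 to 0.111), with library totals (0.15, adjusted p = 0.7) and with TMM scaling (0.74, adjusted p = 0.0682). The rise of Kif1a against control with both agents (0.64 ± 0.23, adjusted p = 0.0496) was likewise lost when any of control 1, 2 or 3 or LPS with NCT503 1 or 3 was left out (adjusted p = 0.0742 to 0.153), with library totals (0.20, adjusted p = 0.533) and in DESeq2 (0.65, adjusted p = 0.0661).

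The remaining kinesin-3 motors carry endosomes. Kif13b, which moves phosphoinositide-marked vesicles, was at 2570.2, 2327 and 2252 normalized reads in the controls, 842, 768 and 762 with LPS and 1831, 1639 and 1808 with LPS and NCT503, a 3-fold fall with LPS (-1.58 ± 0.14, adjusted p = 3.28e-06) and a 2.23-fold rise with NCT503 (1.15 ± 0.16, adjusted p = 0.000242). Its 3 groups did not overlap, with the NCT503 libraries between the others. The difference from control (-0.44 ± 0.14, adjusted p = 0.0295) was lost without any 1 library of these groups except LPS with NCT503 2 (adjusted p = 0.0565 to 0.112) and with the GC correction (-0.34, adjusted p = 0.076). Kif16b, which binds early endosomes through a lipid-binding domain, was at 479, 422 and 384 in the controls, 228, 134 and 147 with LPS and 561, 379.8 and 541 with LPS and NCT503. It fell with LPS (-1.36 ± 0.22, adjusted p = 0.000375), rose with NCT503 (1.56 ± 0.25, adjusted p = 0.000657) and was not called against control (0.19 ± 0.19, adjusted p = 0.467). Kif13a, which carries recycling endosomes, was at 568, 604 and 531 in the controls, 332, 285 and 296 with LPS and 259.9, 252 and 250.01 with LPS and NCT503. It fell with LPS (-0.89 ± 0.15, adjusted p = 0.000618) and stayed low with NCT503, -1.16 ± 0.15, adjusted p = 0.000174 against control and -0.26 ± 0.18, adjusted p = 0.306, not called, against LPS.

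**Figure D5:**
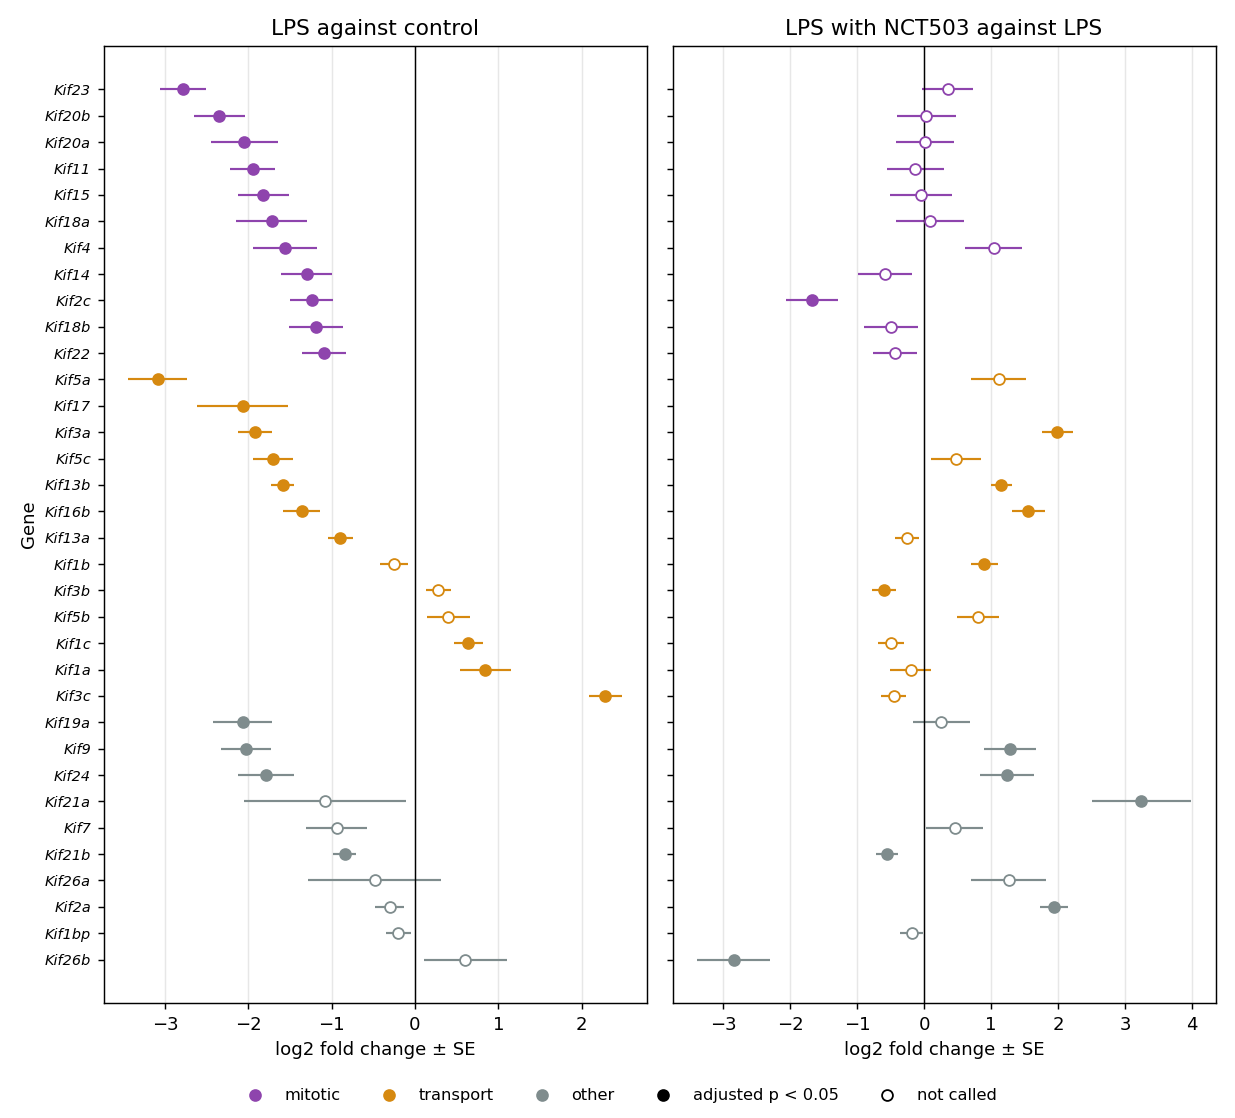
Log2 fold changes ± SE of the 34 kinesins tested with LPS against control (left) and of the 33 tested with LPS and NCT503 against LPS (right), 3 libraries against 3, coloured by class; filled points have an adjusted p under 0.05 in limma-trend. On the left all 11 mitotic kinesins are filled and below 0, and on the right only Kif2c among them is filled; the transport kinesins lie on both sides of 0 in both panels.

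The classes were set side by side within each library, as the median over the class of each gene's log2 level minus its mean over the 9 libraries. The mitotic median minus the transport median was 0.71, 0.99 and 0.81 in the controls, -0.22, -0.29 and -0.07 with LPS and -0.76, -1.38 and -0.70 with LPS and NCT503. The 3 groups did not overlap. Both class medians were lower with LPS: the mitotic one lay between 1.05 and 1.37 in the controls and between -0.79 and -0.31 with LPS, the transport one between 0.24 and 0.56 and between -0.51 and -0.09. With NCT503 the transport median was 0.30, 0.13 and 0.26, above every LPS library, and the mitotic median was -0.46, -1.26 and -0.44, which overlapped the LPS libraries. No test was made of these differences, since the classes were chosen with results of these data known.

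Over the whole family 22 of 34 kinesins tested fell with LPS and 3 rose, where 41.8% of all genes were called in either direction. With NCT503 against LPS 8 of 33 rose and 4 fell, where 32.6% of all genes were called, and against control 18 of 34 were lower and 6 higher, where 40.4% were. Both members in 1 table only, Kif6 and Kif27, which belong to cilia and flagella, had 2 and 4 reads over the 3 control libraries, none in the LPS libraries, and were not tested. Kif2b, Kif12 and Kif28 were not analysed here.

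Of the other kinesins, Kif2a, a depolymerase that acts at spindle poles and on growing axons and also places lysosomes, rose with NCT503. It was at 333, 319.9 and 319 normalized reads in the controls, 304, 263 and 223 with LPS and 1127, 786 and 1135 with LPS and NCT503. It was not called with LPS (-0.30 ± 0.17, adjusted p = 0.18; with library totals -1.005, adjusted p = 0.0025) and 3.83-fold higher with NCT503 against LPS (1.94 ± 0.21, adjusted p = 4.37e-05). Every NCT503 library lay above the other 6. It shares 19.2% of its exon bases with Dimt1 on the other strand, which was at 22.3 ± 6.71 in LPS and 58.4 ± 14.2 (SD, n = 3) with NCT503 on the scale of that comparison, and also rose (1.36 ± 0.34, adjusted p = 0.00938). The part of shared exons in the rise of Kif2a was not tested. Kif2a has a low transcript GC content, 38.6%, and within the NCT503 group its level was lowest in library 2.

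Kif21b, which slows microtubule growth and is found in immune cells, was at 1215, 1363 and 1356 normalized reads in the controls, 725, 719 and 741 with LPS and 490.3, 507 and 489 with LPS and NCT503. It fell with LPS (-0.84 ± 0.14, adjusted p = 0.000443), and the groups did not overlap in any pair. The further fall with NCT503 (-0.55 ± 0.16, adjusted p = 0.022) was lost without LPS 2, LPS 3, or LPS with NCT503 1 or 3 (adjusted p = 0.0556 to 0.0866), with library totals (-0.31, adjusted p = 0.209) and with the GC correction (-0.27, adjusted p = 0.216). Against control it was lower (-1.40 ± 0.14, adjusted p = 2.83e-05). Kif9, tied to podosomes in macrophages and to cilia, was at 67.0, 53.2 and 46.5 in the controls, 12.7, 13.6 and 11.8 with LPS and 35.7, 19.8 and 48.7 with LPS and NCT503. It was lower with LPS (-2.03 ± 0.30, adjusted p = 0.00022) and higher with NCT503 against LPS (1.29 ± 0.39, adjusted p = 0.0256). Kif24, which controls the capping of centrioles before cilia form, was at 48.5, 51.8 and 47.3 in the controls, 19.6, 13.6 and 9.18 with LPS and 32.6, 22.9 and 49.8 with LPS and NCT503. Kif24 was also lower with LPS (-1.78 ± 0.34, adjusted p = 0.00126) and higher with NCT503 (1.24 ± 0.41, adjusted p = 0.0364). Both NCT503 calls were lost when single libraries were left out, Kif9 in 5 of 6 cases (all but LPS with NCT503 2, adjusted p up to 0.136) and Kif24 in 4 (LPS 2, LPS 3, and LPS with NCT503 1 and 3, adjusted p up to 0.171), and both after quantile normalization (1.05, adjusted p = 0.0601 for Kif9 and 0.98, adjusted p = 0.0921 for Kif24). Against control both were called lower with library totals alone (-1.18, adjusted p = 0.028 and -0.99, adjusted p = 0.0342).

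Kif19a, which trims the tips of motile cilia, was at 79.2, 94.5 and 107 normalized reads in the controls, 11.5, 30 and 27.5 with LPS and 24.5, 37.5 and 18.4 with LPS and NCT503, lower with LPS (-2.07 ± 0.36, adjusted p = 0.000694) and against control with NCT503 (-1.81 ± 0.30, adjusted p = 0.000881), without overlap. Kif1bp was at 448, 508 and 518 in the controls, 441, 425 and 412 with LPS and 402, 386 and 337 with LPS and NCT503 and was called in none of the 3 comparisons (-0.20, -0.19 and -0.39). Against control it passed as lower without LPS with NCT503 2 (adjusted p = 0.0419), with library totals (-0.84, adjusted p = 0.00123) and in edgeR (-0.43, adjusted p = 0.0281), and with LPS it was lower with library totals (-0.90, adjusted p = 0.00074). Kif7, a regulator of Hedgehog signalling at the tip of the cilium, had 9.55 to 28.7 normalized reads in any library and was not called with LPS (-0.94 ± 0.37, adjusted p = 0.0586), though edgeR on the recovered reads gave an adjusted p of 0.0341.

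The 3 scarce kinesins Kif21a, Kif26a and Kif26b varied widely between libraries of a group. Kif26b, an atypical kinesin without motor activity, was at 71.1, 16.8 and 24 normalized reads in the controls, 29.95, 46.4 and 74.7 with LPS and 5.10, 13.5 and 2.16 with LPS and NCT503. The fall with NCT503 against LPS (-2.84 ± 0.55, adjusted p = 0.00218) left no overlap. With LPS it was not called (0.60 ± 0.50, adjusted p = 0.361) but was higher without control 1 (1.19, adjusted p = 0.0442), and the fall against control (-2.28 ± 0.64, adjusted p = 0.0166) was lost without control 1 (-1.69, adjusted p = 0.065) or LPS with NCT503 3 (-1.76, adjusted p = 0.0648). Kif26a, its relative, was at 28.0, 2.80 and 1.60 in the controls, 3.46, 5.45 and 2.62 with LPS and 7.14, 23.9 and 6.49 with LPS and NCT503 and was not called, but passed against control without control 1 (1.87, adjusted p = 0.0438) and against LPS with the GC correction (1.46, adjusted p = 0.0371). Kif21a, a regulator of microtubule growth, was at 15.0, 1.40 and 0.801 in the controls, 0, 0 and 6.56 with LPS and 12.2, 34.3 and 17.3 with LPS and NCT503, with 0, 0 and 5 reads in the LPS libraries and 12, 33 and 16 with NCT503. It rose with NCT503 against LPS (3.24 ± 0.74, adjusted p = 0.0061), a call lost without both libraries 2 (2.40, adjusted p = 0.0709). Against control the groups of Kif21a overlapped and the call (2.32 ± 0.78, adjusted p = 0.0369) was lost without control 2, control 3, or LPS with NCT503 2 or 3 (adjusted p = 0.0817 to 0.135), without both control 3 and LPS with NCT503 2 (1.33, adjusted p = 0.265), and in edgeR and DESeq2 (1.78, adjusted p = 0.125 and 1.87, adjusted p = 0.0766). All 3 genes were highest among the controls in control 1, where the 10 stromal markers summed to 29597 normalized reads, against 6287 and 10129 in controls 2 and 3, 18578 to 39250 with LPS and 19674 to 49595 with LPS and NCT503. Of the stromal markers 5 of 10 rose with LPS, where 20.5% of all genes were higher. With NCT503 against LPS 1 rose and 3 fell, where 16.9% of all genes were higher and 15.7% lower. The part of stromal cells in these results was not tested.

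Light chains and cargo adaptors, 28 tested, gave 5 higher and 7 lower with LPS, close to the 20.5% and 21.4% of all genes. With NCT503 against LPS 7 were higher and 6 lower (16.9% and 15.7% of all genes), and against control 7 were higher and 9 lower (20.7% and 19.7%). Klc4, a kinesin-1 light chain, was at 1494, 1988 and 2172 normalized reads in the controls, 115, 170.5 and 156 with LPS and 302, 491 and 412 with LPS and NCT503 (-3.67 ± 0.20, adjusted p = 7.42e-08 with LPS and 1.43 ± 0.24, adjusted p = 0.000944 for NCT503). Klc2, another light chain, rose with LPS (0.76) and fell with NCT503 (-0.91). Arl8b, the GTPase that couples lysosomes to kinesin-1, was at 2530.5, 2368 and 2280.4 in the controls, 1612, 1230.1 and 1276 with LPS and 4543, 3486 and 4455 with LPS and NCT503. It was lower with LPS (-0.81 ± 0.15, adjusted p = 0.0012) and with NCT503 above both other groups (1.60 ± 0.18, adjusted p = 6.31e-05 against LPS). Plekhm2, the adaptor between Arl8b and the light chains, rose with NCT503 against LPS (1.04 ± 0.19, adjusted p = 0.00133). Its relative Arl8a rose with LPS (1.21) and was not called with NCT503 (0.36). The adaptor Fez2 rose with LPS (0.69) and fell with NCT503 (-1.23), and Borcs6 and Borcs5, subunits of the BORC complex that recruits Arl8 to lysosomes, fell with NCT503 (-1.22 and -1.33).

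Cytoplasmic dynein and dynactin move cargo in the opposite direction, and with LPS 9 of 26 of their genes were higher and 3 lower, with a median of 0.26, where 20.5% and 21.4% of all genes were. The adaptor Hook2 (1.75), the dynein regulator Ndel1 (1.44), the intermediate chain Dync1i2 (1.19) and the heavy chain Dync1h1 (0.99) were among those that rose. With NCT503 against LPS, where 15.7% of all genes were lower and 16.9% higher, 7 of 26 fell, among them the light chain Dynll1 (-1.29), the dynactin filament protein Actr1a (-1.16) and the regulator Nde1 (-1.13), and 1, the adaptor Hook1, rose (2.86). Against control 6 of 25 were higher and 5 lower, near the 20.7% and 19.7% of all genes. The difference between the dynein and kinesin lists was not tested.

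In the mouse genome mm10 Kif23 spans chr9:61915905-61946774 (minus strand), Kif3c chr12:3365132-3406494 (plus), Kif3a chr11:53567379-53601967 (plus), Kif1c chr11:70700548-70731964 (plus), Kif5a chr10:127225696-127263348 (minus) and Kif2a chr13:106958996-107022126 (minus). Counting could mix some kinesins with neighbours that share exons. Of the 36 members 14 share exon bases with another gene in GENCODE M21, and for 6 the shared part is over 10%. Beside Kif3c and Kif2a these are Kif20a (29.2%, Cdc23), Kif7 (19.1%, 9330171B17Rik), Kif4 (15.1%, Pdzd11) and Kif1bp (10.1%, 4933428P19Rik). Cdc23 fell with LPS (-1.07 ± 0.18, adjusted p = 0.000565), in the direction of Kif20a. Pdzd11 rose with LPS (1.37 ± 0.16, adjusted p = 4.72e-05) and fell with NCT503 (-1.48 ± 0.18, adjusted p = 0.000111), in both cases opposite to the estimate of Kif4. The part of shared exons in the levels of these kinesins was not tested. The start and end in the deposited table were those of GENCODE M21 for 35 of 36 members, all but Kif20a.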

How the data were processed

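RNA-seq was made from total RNA of 9 macrophage libraries, 3 a group. The submitters' processing notes name TopHat2 and the build mm10; their versions, the read counter, the annotation and the strand setting were not stated in the sources available. Per the file headers and the values, the authors deposited 2 tables, LPS against control (23001 genes) and LPS with NCT503 against LPS (22620 genes), holding signal per library, which is reads divided by a size factor, with the authors' log2 fold changes in log2 units and their p-values. Whole reads were recovered for 100% of values (tolerance 0.001), and the LPS reads were identical in both tables, so the 9 libraries were joined over 21434 shared genes for levels and for the comparison with control. Since the values were not raw counts, the test was limma-trend (limma 3.58.1, R 4.3.3; trend and robust) on log2(value + 1) for genes with a mean of at least 1 in either group, adjusted over all genes and tested on simulated data. Each comparison used only its own libraries; the first and second were normalized within their table, so their means differ slightly from the joint levels printed. Every member was accounted for, with its libraries one by one where a group mean reached 50 or a test passed; partner lists were given by counts and up to 4 members with the smallest p a comparison, and partners named beyond these were chosen after their values were seen. Members, classes and lists were chosen with earlier results of these data known. Alternatives were TMM, library totals, quantile normalization, other filters and pseudocounts, edgeR 4.0.16 and DESeq2 1.42.0 on the recovered reads, a replicate block, wider classes, all 9 libraries in 1 fit, single libraries left out, and, added after seeing the data, leaving out the 3 libraries whose deviations rose most with GC content and a GC correction in 20 bins of transcript GC content. The promoter windows came from RefSeq.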

Additional observations from a re-analysis of the deposited data

How the results depend on the processing

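Over the alternatives, 211 of 234 recomputed counts and class differences stayed close to the value given and 23 moved; of 1807 recomputed values of single kinesins 1674 kept direction and call, 84 lost and 47 gained a call, and 2 turned, both Kif1c with LPS (-0.061 with library totals and -0.28 with quantile normalization). With library totals, transport kinesins called higher with LPS numbered 1, those lower with NCT503 against LPS 0 and those higher against control 1. With wider classes (Kif2a and Kif24 as mitotic, Kif21a and Kif21b as transport) mitotic kinesins called higher with NCT503 against LPS numbered 2 and transport kinesins lower 2, mitotic kinesins higher against control 1, and the mean class difference in the controls was 0.69. Leaving out control 3, LPS 2 and LPS with NCT503 2 gave 2 transport kinesins lower with NCT503 against LPS.

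With single libraries left out, mitotic kinesins lower with LPS numbered 10 to 11, transport kinesins higher 1 to 3 (1 without LPS 3) and lower 7 to 8. For NCT503 against LPS mitotic kinesins higher numbered 0 to 1 (1 without LPS 1 or LPS with NCT503 2), transport kinesins higher 4 to 6 and lower 0 to 2 (0 without LPS 3 or LPS with NCT503 3, 2 without LPS with NCT503 2). Against control, mitotic kinesins lower numbered 9 to 10, transport kinesins higher 2 to 4 (2 without control 2, or LPS with NCT503 1 or 3) and lower 2 to 5 (2 without control 1 or 2, 3 without control 3 or LPS with NCT503 3).

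Whether the replicate numbers pair the libraries was not settled. Deviations of same-numbered libraries correlated at 0.30, 0.15 and -0.02 between control and LPS and at 0.17, -0.10 and -0.35 between control and NCT503. Between LPS and NCT503 they correlated at 0.46, 0.45 and -0.13. Not every library correlated best with its own number. The deviations also followed GC content, so these correlations cannot tell whether same-numbered libraries shared a mouse or culture. The replicate block added calls of Kif5b with LPS (adjusted p = 0.0123) and, with NCT503 against LPS, of Kif4 (0.0375), Kif5a (0.0489) and Kif5b (0.00184) as higher and Kif1c (0.0132) and Kif3c (0.0179) as lower, which gave 1 mitotic kinesin higher and 3 transport kinesins lower. Against control it lost Kif13b (0.0607) and Kif1a (0.106). Genes called numbered 9714 in place of 8355 with LPS, 8186 in place of 6449 with NCT503 and 8098 in place of 8061 against control. Kinesins with a few reads a library, such as Kif17, Kif18a, Kif21a and Kif26a, are limited by depth; intervals on counts would cover counting error only.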
